A study of Mus musculus with 10 samples.

Results

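The nuclear genes that encode respiratory complex III, cytochrome c, complex IV and ATP synthase were followed in skeletal muscle of mice that overexpress the zinc finger protein gene Zfp407. Members were the protein-coding rows of the deposited gene table whose symbol begins with Uqcr, Uqcc, Cox and a digit, or Atp5, together with Cyc1 and Cycs. This gave 53 genes of 15883 in the table, and all 53 passed the filter on low counts, with 13338 genes tested in all. RNA was sequenced from the biceps femoris of 10 male C57BL/6J mice, 5 wild type and 5 labelled as Zfp407 transgenic. Mice of both groups were 5 weeks old, were kept on normal chow and were fasted for 16 hours before tissue was taken. The transgene is the difference that the labels give between the groups, and the promoter that drives it is not given in the sources used here. The libraries carry no label that ties a column to a single mouse, so replicate numbers below only name columns.

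Complex III passes electrons from ubiquinol to the small carrier cytochrome c, and complex IV, cytochrome c oxidase, passes them from cytochrome c to oxygen. Both pump protons across the inner mitochondrial membrane, and ATP synthase, complex V, lets the protons flow back while it makes ATP. A few subunits at the core of each complex are encoded in mitochondrial DNA, the rest are nuclear, and assembly factors, which are not part of the finished enzyme, insert the haem and copper groups and join the parts. Skeletal muscle uses its own isoforms of several complex IV subunits, among them Cox6a2, Cox7a1 and Cox8b.

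Wild-type libraries held 13530367 to 17814900 counts and transgenic libraries 15162400 to 19047834. Zfp407 itself stood at 22.9 ± 1.73 CPM (counts scaled by library size with TMM factors to 1 common total, SD, n = 5) in wild type and at 489 ± 124 in the transgenic group, and no library went against its label. None of 8 skeletal muscle, 8 slow fibre, 8 fast fibre and 3 adipocyte markers passed edgeR's test, and none had an unadjusted p under 0.05. All 8 slow fibre markers had fold changes below 0, with a median of -0.43 and a median standard error of 0.76 on the log2 scale. The summed level of the slow fibre markers, which mark the fibres rich in mitochondria, ran from 103 to 1508 CPM in wild-type and from 206 to 832 CPM in transgenic libraries. The 9 hepatocyte markers all passed edgeR's test upward. Their summed level was 57.8 to 165 CPM in wild-type and 284 to 4265 CPM in transgenic libraries, and albumin (Alb) alone reached 3038 CPM in transgenic library 5. Since the 2 groups did not overlap in any of the 9, their level and the genotype cannot be told apart, and their part in the results below was not tested beyond a fit with their level as a covariate. Of 7 leukocyte markers 3 rose, with summed levels of 106 to 190 and 150 to 353 CPM. Transgenic library 3 stood apart from the other 4 of its group in the genes described here, as set out below. In tissue RNA, fewer cells of a type and less RNA per cell cannot be told apart.

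Of the 53 genes 1 rose in transgenic muscle, the assembly factor gene Cox11, and 2 fell, the haem A synthase gene Cox15 and the ATP synthase subunit gene Atp5l. The test was edgeR's quasi-likelihood test with a Benjamini-Hochberg adjusted p under 0.05 over all 13338 genes, of which 4.28% were called higher and 1.05% lower, 5.33% in all. The 3 called members are thus about the share that all genes would give, so the members as a whole did not stand out by their number of calls. With TMM scaling the median log2 fold change was 0.05 over the 53 genes, with 33 above and 20 below 0, and 0.00 over all genes tested. With total counts only these medians were 0.32 and 0.27. The median standard error of a member's fold change was 0.14 on the log2 scale. An unadjusted p under 0.05 was found for 4 of the 53 genes, against 18.1% of all genes. The wild-type and transgenic libraries did not overlap for 2 members, against 8.04% of all genes. Both were lower, against 2.9% of all genes in that direction, and no member was higher without overlap, against 5.14%. In the authors' deposited table the same 3 members had an adjusted p under 0.05, against 7.29% of its genes.

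**Figure D1:**
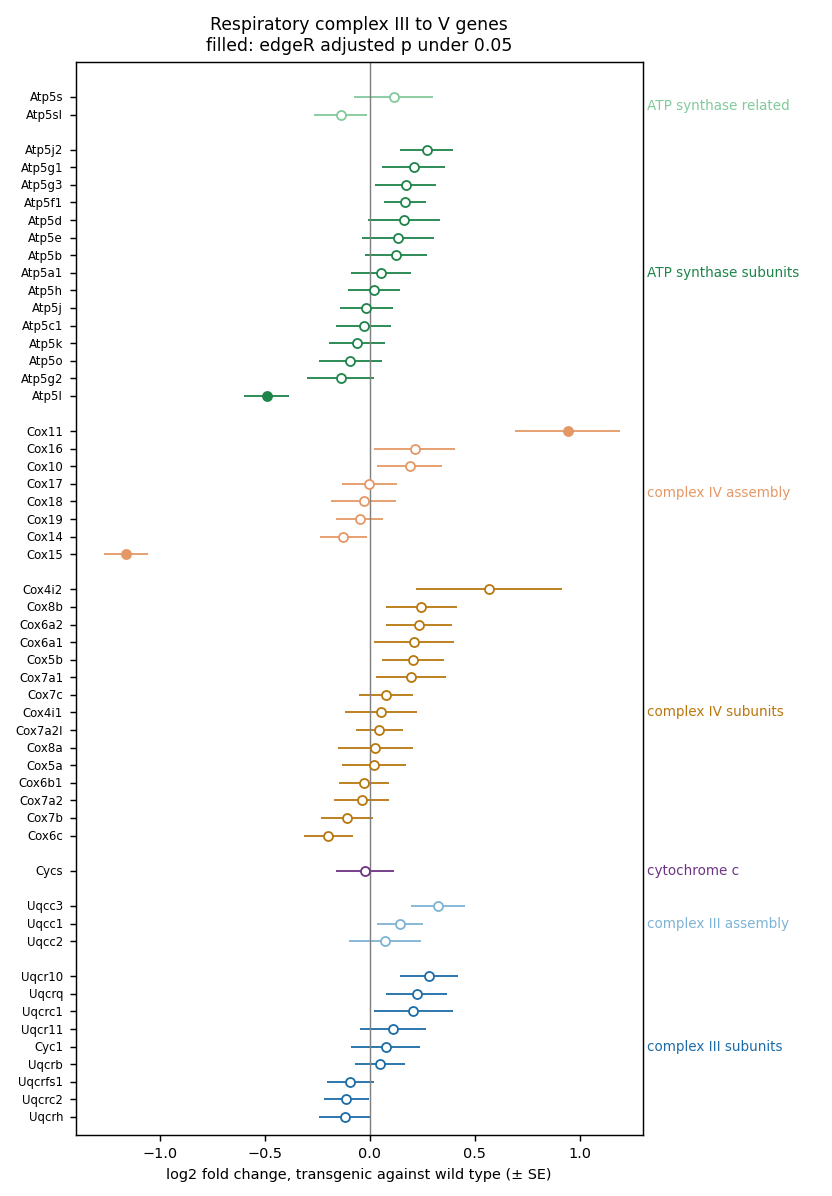
The log2 fold change of each of the 53 genes, transgenic against wild type, with its standard error (5 libraries a group), ordered by role; filled points passed the adjusted threshold. Cox15 and Atp5l lie to the left at -1.16 and -0.49 and Cox11 to the right at 0.94, while the other points are open.

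Cox15 encodes the enzyme that makes haem A, the haem group found only in cytochrome c oxidase. The gene lies on the minus strand at chr19:43733254-43753000 (GRCm38) and has 9 exons in the model used for length. In wild-type libraries 1 to 5 it stood at 19.5, 15.8, 19.6, 18.5 and 19.0 CPM, and in transgenic libraries 1 to 5 at 8.18, 8.20, 9.37, 8.08 and 7.53 CPM. Every transgenic library lay below every wild-type library, with a wide gap between the groups and little spread inside each. The means were 18.5 ± 1.58 and 8.27 ± 0.671 CPM (SD, n = 5). The log2 fold change was -1.16 ± 0.10 (SE), a level of 0.448 of wild type, with an edgeR adjusted p of 3.50e-05. An exact two-sided permutation test on log2 CPM gave p = 0.00794, the smallest that 252 splits allow. The call held in all 22 alternative analyses, with log2 fold changes from -1.25 to -0.90 and adjusted p of at most 0.0236, the value with hepatocyte marker level as a covariate. In the authors' deposited table the log2 fold change was -1.17 with an adjusted p of 1.86e-17. Its 3′ end overlaps Entpd7 on the other strand by 444 bases. Strand use in counting is not given, so reads there cannot be assigned to one gene. Entpd7 stood at 1.93 ± 0.570 and 1.24 ± 0.302 CPM and missed the threshold (edgeR adjusted p = 0.203).

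The start of Cox15 faces another gene. Cutc, which encodes a protein of the copper homeostasis family, starts at position 43752996 of chromosome 19 on the plus strand, and its annotated start and that of Cox15 lie 4 bases apart, so that the genes overlap by 5 bases and are read away from each other. The Cox15 start region is printed because the genes on its sides moved in opposite directions. It is the RefSeq window from 250 bases before to 50 bases after the start (GRCm38.p6, chr19:43752951-43753250, minus strand, 5′ to 3′), and the capitals mark a match to CCGGAAG, the core bound by the ETS factor GABPA, a regulator of many respiratory genes.
Cox15 start region: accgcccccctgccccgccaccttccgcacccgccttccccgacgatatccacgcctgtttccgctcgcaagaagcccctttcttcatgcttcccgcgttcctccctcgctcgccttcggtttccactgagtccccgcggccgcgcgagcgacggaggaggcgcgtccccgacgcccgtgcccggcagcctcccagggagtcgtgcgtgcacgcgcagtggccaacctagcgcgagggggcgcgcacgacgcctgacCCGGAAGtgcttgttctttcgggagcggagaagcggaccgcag

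Cutc stood at 9.92, 11.9, 10.8, 11.6 and 11.2 CPM in wild-type libraries and at 14.5, 14.8, 16.3, 17.5 and 16.5 CPM in transgenic libraries. The groups did not overlap, and here the transgenic libraries were the higher ones. Cutc rose by 0.52 ± 0.10 on the log2 scale (SE, n = 5 a group), with an edgeR adjusted p of 0.00867 and an exact permutation p of 0.00794. The call held in 20 of 22 alternatives, with fold changes from 0.39 to 0.78. It was lost without transgenic libraries 4 and 5 (adjusted p = 0.0766) and with the hepatocyte covariate (adjusted p = 0.395). Cutc is no member, and it and Stxbp4 below were taken up after their values had been seen.

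Cox11 encodes a membrane protein that delivers copper to the CuB site of cytochrome c oxidase. It lies on the plus strand at chr11:90638173-90644931. Its level was low, at 2.13, 1.86, 1.17, 2.41 and 1.66 CPM in wild type, from 21 to 37 counts a library. In transgenic libraries 1 to 5 it stood at 2.06, 3.68, 4.56, 4.16 and 3.22 CPM, from 37 to 88 counts. Transgenic libraries 2 to 5 lay above all wild-type libraries, and transgenic library 1 lay inside the wild-type range, so the groups overlapped. The means were 1.84 ± 0.472 and 3.53 ± 0.967 CPM (SD, n = 5), with a log2 fold change of 0.94 ± 0.25 (SE) and an edgeR adjusted p of 0.0475. The exact permutation p was 0.0238. The call sat at the edge of the threshold. It held in 6 of 22 alternatives, the adjusted p ran from 0.00457 to 0.434, and the fold change stayed between 0.77 and 1.21. Its 3′ end overlaps Tom1l1 on the other strand by 1467 bases, and Tom1l1 had a fold change of 0.01 on the log2 scale (edgeR adjusted p = 0.966).

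Stxbp4, which encodes a syntaxin-binding protein studied in insulin-stimulated vesicle traffic, starts 89 bases from Cox11 and is read the other way. The Cox11 start region is shown for this shared stretch (RefSeq window, GRCm38.p6, chr11:90637934-90638233, plus strand), and the capitals mark the 90 bases from the annotated start of Stxbp4 to that of Cox11.
Cox11 start region: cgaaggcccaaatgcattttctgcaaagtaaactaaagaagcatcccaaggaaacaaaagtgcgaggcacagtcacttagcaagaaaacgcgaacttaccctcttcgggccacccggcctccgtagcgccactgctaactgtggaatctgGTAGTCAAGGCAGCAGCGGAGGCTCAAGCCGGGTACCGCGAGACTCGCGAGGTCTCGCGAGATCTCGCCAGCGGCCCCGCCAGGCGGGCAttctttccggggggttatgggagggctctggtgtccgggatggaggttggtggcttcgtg

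Stxbp4 stood at 9.61, 9.91, 21.1, 26.5 and 17.1 CPM in wild-type libraries, with libraries 1 and 2 well below the other 3. Transgenic libraries were at 3.56, 4.89, 2.97, 3.64 and 3.02 CPM, all below every wild-type library. The log2 fold change was -2.22 ± 0.28 (SE), a level of 0.215 of wild type, with an edgeR adjusted p of 0.000602 and an exact permutation p of 0.00794. The call held in 21 of 22 alternatives, the exception being the hepatocyte covariate (adjusted p = 0.0540). The fold change ran from -2.40 to -1.97.

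Pairs of genes that share a start region in this way were then counted. Head-to-head neighbours were defined as tested genes on opposite strands, read away from each other, with starts at most 1000 bases apart and an overlap of at most 500 bases. Among the 53 genes 11 had such a neighbour, and the Cox15 and Cox11 pairs were the 2 in which both genes passed the test. The fold changes had opposite signs in 5 of the 11 pairs, called or not. Over all genes tested there were 869 such pairs, of which 60 had at least 1 called gene and 7 had both called. In 2 of the 869 pairs, 0.230%, both genes were called in opposite directions, and these were the Cox15 and Cox11 pairs. No test was made of this count, since the pairs were noticed in the same data. The count rests in part on the Cox11 call, which held in 6 of 22 alternatives.

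**Figure D2:**
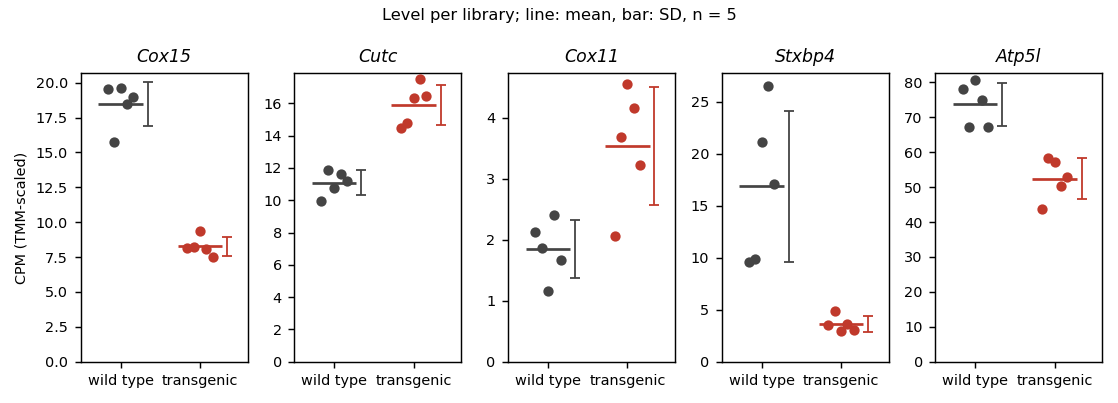
CPM in each of the 5 wild-type and 5 transgenic libraries for Cox15, Cutc, Cox11, Stxbp4 and Atp5l, with the mean as a line and the SD as a bar. Cox15, Stxbp4 and Atp5l are lower and Cutc higher in every transgenic library, while for Cox11 transgenic library 1, at 2.06 CPM, lies among the wild-type points.

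Atp5l encodes subunit g, a membrane subunit of ATP synthase that takes part in joining the enzyme into dimers. It lies on the minus strand at chr9:44912557-44920742. Wild-type libraries stood at 78.1, 67.3, 80.7, 75.0 and 67.2 CPM and transgenic libraries at 43.6, 58.3, 57.1, 50.2 and 53.02 CPM. All transgenic values were below all wild-type values. The means were 73.7 ± 6.18 and 52.4 ± 5.90 CPM (SD, n = 5), a log2 fold change of -0.49 ± 0.11 (SE) with an edgeR adjusted p of 0.0174 and an exact permutation p of 0.00794. The call held in 18 of 22 alternatives. It was lost without TMM scaling (log2 fold change -0.23, adjusted p = 0.219), without transgenic libraries 1 and 2 (adjusted p = 0.0614), without transgenic libraries 4 and 5 (adjusted p = 0.115) and with the hepatocyte covariate (-0.48 ± 0.20, adjusted p = 0.351). The annotation names 2 processed copies of Atp5l, whose reads could have been shared with it. The Atp5l start region is printed because Atp5l is the third called member, and it holds 2 GABPA matches (RefSeq window, GRCm38.p6, chr9:44920693-44920992, minus strand). Capitals mark CTTCCGG, the reverse strand of CCGGAAG.
Atp5l start region: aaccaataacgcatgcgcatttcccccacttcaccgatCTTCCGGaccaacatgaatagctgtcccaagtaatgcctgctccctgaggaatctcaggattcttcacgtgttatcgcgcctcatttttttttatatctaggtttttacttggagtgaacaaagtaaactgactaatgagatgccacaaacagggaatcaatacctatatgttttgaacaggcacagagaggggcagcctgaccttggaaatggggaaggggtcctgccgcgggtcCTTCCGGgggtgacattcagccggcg

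The other 14 ATP synthase subunit genes did not pass the test, with fold changes from -0.14 for Atp5g2 to 0.27 for Atp5j2 on the log2 scale. Atp5b and Atp5a1 encode the beta and alpha subunits of the catalytic head, and together they gave 34.4% ± 1.39 of the summed CPM of the 53 genes in wild type and 34.9% ± 1.23 in transgenic libraries (SD, n = 5). Atp5b ran from 1400 to 1664 CPM in wild type with a median of 1587. In transgenic libraries 1, 2, 4 and 5 it ran from 1474 to 1637 CPM, and library 3 had 2368 CPM. Atp5f1 encodes subunit b of the stator, the arm that holds the head still. It stood at 250, 211, 249, 269 and 225 CPM in wild type and at 260, 270, 295, 262 and 266 CPM in the transgenic group. The fold change of Atp5f1 was 0.17 ± 0.10 on the log2 scale, with an edgeR adjusted p of 0.420 and an exact permutation p of 0.0317, unadjusted. Atp5j2, which encodes the small membrane subunit f, had means of 77.1 ± 10.5 and 93.2 ± 13.6 CPM (SD, n = 5) and an edgeR adjusted p of 0.280.

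Subunit c forms the turning ring of ATP synthase, and 3 genes, Atp5g1, Atp5g2 and Atp5g3, encode the same mature protein. Per kb of merged exons, Atp5g3 gave 69.3% ± 1.12 of their summed level in wild type and 70.4% ± 1.21 in transgenic libraries (SD, n = 5). Atp5g1 gave 21.3% ± 0.810 and 22.1% ± 0.854. Atp5g2 gave 9.38% ± 0.991 and 7.52% ± 0.636, with 8.55% to 11.1% in wild-type and 6.78% to 8.54% in transgenic libraries. With this length its ranges met without overlap. These shares were not tested beyond the fit of each gene. Per kb of 1 representative transcript Atp5g3 gave 82.7% in wild type, so the shares depend on the length taken. With that length the highest transgenic share of Atp5g2, 7.82%, lay above its lowest wild-type share, 7.71%, so its ranges overlapped. Without transgenic library 3, Atp5g2 was called lower, with a log2 fold change of -0.33 ± 0.08 and an edgeR adjusted p of 0.0323. With that library, which had 25.9 CPM against 14.0 to 17.0 in the other 4, the change was -0.14 ± 0.16 and the adjusted p 0.726.

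Atp5s and Atp5sl carry the family name but are not counted among the subunits. Atp5s encodes factor B, a coupling factor. It stood at 7.60 ± 2.31 CPM in wild type and 8.27 ± 0.781 in transgenic libraries (SD, n = 5; edgeR adjusted p = 0.822). Atp5sl stood at 15.9 ± 1.19 and 14.4 ± 2.75 CPM (edgeR adjusted p = 0.642).

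None of the 9 complex III subunit genes passed edgeR's test, had an unadjusted p under 0.05 or was called by DESeq2. Their fold changes ran from -0.12 for Uqcrh to 0.28 for Uqcr10 on the log2 scale. Uqcr10, a small subunit near cytochrome c1, stood at 92.1, 78.4, 87.8, 88.8 and 76.2 CPM in wild type. Its transgenic libraries stood at 85.5, 93.0, 142, 91.2 and 104 CPM. The highest value was again that of library 3, and the other 4 reached from inside to just above the wild-type range (0.28 ± 0.14, edgeR adjusted p = 0.305). Uqcrq, the ubiquinone-binding small subunit, had a fold change of 0.22 ± 0.14 (edgeR adjusted p = 0.460). Uqcrh encodes the hinge protein that helps cytochrome c bind, and it stood at 127 ± 12.8 and 117 ± 18.4 CPM (SD, n = 5). Cyc1 encodes cytochrome c1, the haem protein that hands electrons on, and it stood at 142 ± 17.5 and 150 ± 39.4 CPM. Cycs, somatic cytochrome c itself, had 100 ± 11.7 and 98.99 ± 17.6 CPM, a fold change of -0.02 ± 0.14 (edgeR adjusted p = 0.958).

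Of the 3 complex III assembly genes none passed edgeR's test or was called by DESeq2, and 1 had an unadjusted p under 0.05. This was Uqcc3, a factor for the assembly of cytochrome b into the complex. It stood at 11.7, 9.74, 10.8, 13.5 and 11.0 CPM in wild type and at 14.0, 12.8, 17.7, 14.7 and 12.0 CPM in the transgenic group. Transgenic libraries 1, 3 and 4 were above every wild-type library, and libraries 2 and 5 lay inside the wild-type range. The fold change was 0.32 ± 0.13 on the log2 scale, with an unadjusted p of 0.0250, an edgeR adjusted p of 0.193 and an exact permutation p of 0.0317. Uqcc1 and Uqcc2, which act early in cytochrome b synthesis, had fold changes of 0.15 ± 0.11 and 0.07 ± 0.17.

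The 15 complex IV subunit genes likewise gave no call with edgeR or DESeq2 and no unadjusted p under 0.05, with fold changes from -0.20 for Cox6c to 0.57 for Cox4i2. Cox6c, a small membrane subunit, stood at 209, 171, 186, 200 and 158 CPM in wild type and at 149, 177, 138, 160 and 181 CPM in the transgenic group. The transgenic values spread over the lower part of the wild-type range and below it (-0.20 ± 0.12, edgeR adjusted p = 0.413). Cox4i2, the lung isoform of subunit IV, was near the lower limit of detection, with 0.651 ± 0.327 and 0.992 ± 0.288 CPM (SD, n = 5; edgeR adjusted p = 0.429).

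The muscle isoforms made up most of each complex IV pair that has one, in both groups. Shares below are of the summed level per kb of merged exons within a pair, as mean ± SD over 5 libraries. Cox4i1, the common isoform of subunit IV, gave 99.6% ± 0.202 in wild type and 99.3% ± 0.109 in transgenic libraries. Cox6a2, the heart and muscle isoform, gave 94.9% ± 0.708 and 94.8% ± 1.69 beside Cox6a1. Cox8b, the muscle isoform of subunit VIII, gave 92.6% ± 1.56 and 93.3% ± 1.53 beside Cox8a. The muscle isoform Cox7a1 gave 74.7% ± 1.88 and 77.4% ± 1.81 beside Cox7a2, with ranges of 71.8% to 76.6% and 75.6% to 79.7% that overlapped. The fold changes of Cox7a1 and Cox7a2 were 0.20 ± 0.17 and -0.04 ± 0.13 on the log2 scale, and neither passed. Cox7a2l, a relative of that pair known for its part in supercomplexes of III and IV, had a fold change of 0.05 ± 0.11.

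The remaining 6 complex IV assembly genes, besides Cox11 and Cox15, had fold changes between -0.13 for Cox14 and 0.22 for Cox16. Cox10 makes haem O, the substrate of the Cox15 enzyme. It stood at 14.4, 11.1, 11.5, 13.9 and 13.1 CPM in wild type and at 11.6, 12.9, 20.4, 13.1 and 15.1 CPM in the transgenic group. Its groups overlapped (0.19 ± 0.15, edgeR adjusted p = 0.580). The difference between the changes of Cox10 and Cox15 was not tested. Cox17, the copper chaperone upstream of the Cox11 step, stood at 9.87 ± 1.504 and 9.85 ± 1.19 CPM (SD, n = 5; edgeR adjusted p = 0.999). Cox16 lies inside a longer gene model on the same strand and overlaps 4 tested genes, so its low counts are uncertain.

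Levels of different genes were compared per length of merged exons. Atp5a1 and Atp5b led in wild type with 386 ± 33.8 and 368 ± 23.8 CPM per kb (SD, n = 5), an order within their spread. Cox8b followed with 315 ± 29.8, Cox6a2 with 287 ± 31.8 and Cox6b1, a subunit on the intermembrane side of complex IV, with 248 ± 16.4. Atp5b and Cox8b, Cox8b and Cox6a2, and Cox6a2 and Cox6b1 each differed by less than the sum of their SDs. At the low end stood Cox16 with 0.675 ± 0.0939, Cox4i2 with 0.826 ± 0.415 and Cox11 with 1.296 ± 0.332 CPM per kb. Cox15 ranked 46th of 53 at 3.76 ± 0.322, below 14 of the 15 complex IV subunit genes. The highest complex IV assembly gene was Cox14, at 37.4 ± 3.94. Taking 1 representative transcript per gene, a length chosen after the data were seen, put Atp5b first with 813 ± 52.7 CPM per kb and Atp5a1 second with 490 ± 42.9. It also raised Atp5l from rank 41 to rank 25, since its merged exons, 6443 bases, are far longer than its transcript of 544 bases.

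**Figure D3:**
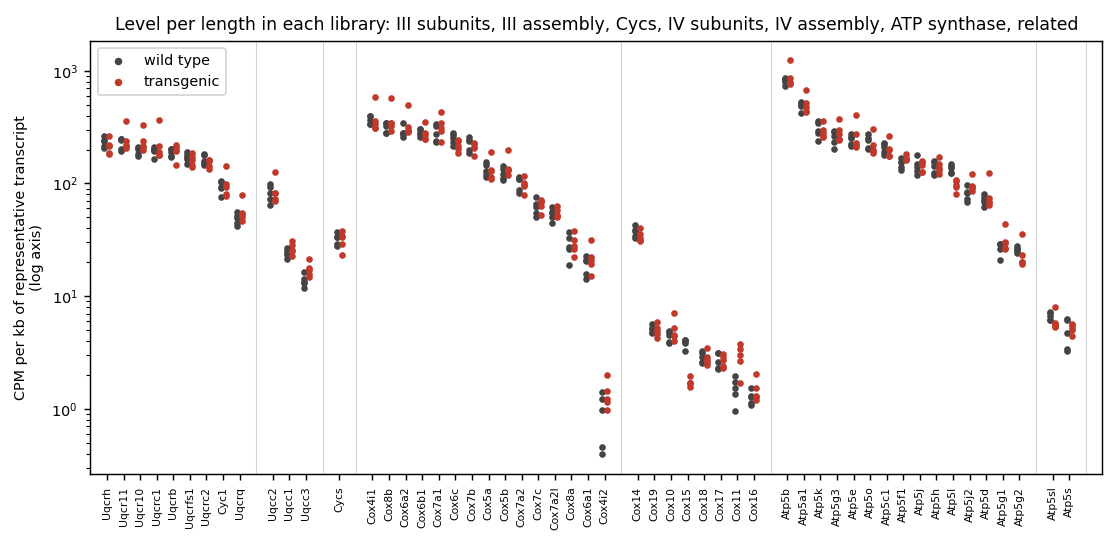
CPM per kb of representative transcript in each library, on a log axis, for the 53 genes in order of level within each role. Subunit genes other than Cox4i2 lie well above most complex IV assembly genes, and the Cox15 points split by group.

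Transgenic library 3 differed from the other 9 libraries across these genes. The summed CPM of the 53 genes was 10991 there, 7397 to 8379 in the other transgenic libraries and 7110 to 8816 in wild type. The group means were 8062 ± 700.4 and 8429 ± 1487 CPM (SD, n = 5), a ratio of 1.05, and the ratio was 0.966 without library 3. That library had the highest value of all 10 in 36 of the 53 genes and the lowest in 4, namely Cycs, Uqcrb, Cox7b and Cox6c. Against the mean of the other transgenic libraries, 46 genes were above and 7 below, from 0.93 for Uqcrc1, a core subunit of complex III, to -0.53 for Cycs on the log2 scale.

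The difference was correlated with the base composition of the transcripts. Across the 53 genes its correlation with the GC content of the representative transcript was r = 0.687. In the other libraries r across the 53 genes ran from -0.632 in transgenic library 5 to 0.295 in wild-type library 1, with -0.543 in transgenic library 4 and -0.402 in transgenic library 2. For the transgenic libraries, the others they were compared with include library 3. Across 12600 genes tested that have a coding transcript it was 0.662 in library 3 and between -0.378 and 0.056 in the other 9 libraries. These are correlations across genes, which are not independent replicates, and each library was compared with the others of its own group. With genes divided by GC into 5 bins of 2520, the median difference of library 3 from the lowest to the highest bin was -0.61, -0.27, 0.05, 0.31 and 0.52. Over the 53 genes the median difference of library 3 was 0.42. Of the 46 genes above the mean of the other transgenic libraries, 37 had a GC content of at most 56.0%. That was the GC content of Atp5j, the highest among the 7 genes below. The next highest of the 7 was Cox6c at 47.2%. Among the 46 genes above, the median GC content was 51.8%, and only Atp5s, Uqcrc2, Cox7c and Atp5g1 lay below Cox6c. The median SD of a member among transgenic libraries was 0.251 on the log2 scale, and 0.124 without library 3, against 0.164 in wild type. Without it the median fold change of the 53 genes was -0.03. The part of GC content in the levels of this library was not tested further. Cox15 and Atp5l were called with and without it.

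**Figure D4:**
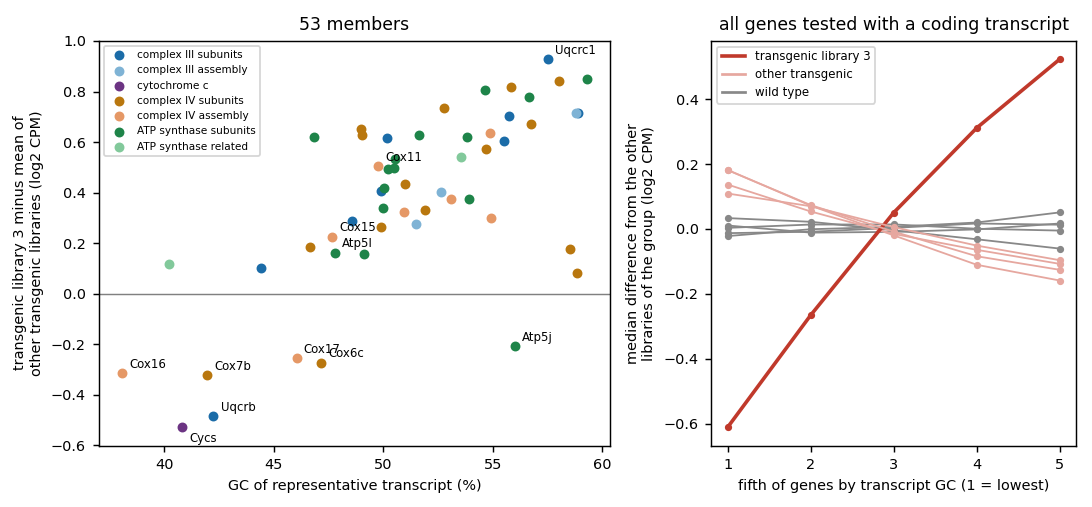
Left, the difference of transgenic library 3 from the mean of the other transgenic libraries (log2 CPM) against transcript GC content for the 53 genes, coloured by role. Right, the median difference of each library from the others of its group in 5 bins of all genes by GC; library 3 rises from -0.61 to 0.52, and the other 9 stay between -0.16 and 0.18.

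The partners of these genes were counted from lists, beside 5.33% of all genes called by edgeR, 4.28% higher and 1.05% lower, and 18.1% with an unadjusted p under 0.05. Mitochondrial DNA encodes cytochrome b, 3 subunits of complex IV and 2 of ATP synthase, and of the 5 genes tested none passed with edgeR or DESeq2 or had an unadjusted p under 0.05. mt-Co1, the catalytic subunit of complex IV, stood at 9405 ± 807 and 10610 ± 1415 CPM and mt-Cytb at 5741 ± 739 and 5436 ± 1520 CPM (SD, n = 5). mt-Atp8 stood at 580 ± 119 and 597 ± 168 CPM. Library 3 had the lowest mt-Cytb and mt-Atp8 of the 10, at 3091 and 301 CPM. mt-Co3 and mt-Atp6 had only 1.44 ± 0.519 and 4.91 ± 1.01 CPM in wild type, and mt-Co2 had 3 to 14 counts a library and was not tested. How reads of these genes were assigned to copies in the nuclear genome is not given in the sources used here. Of 26 further factors and subunits of complexes III to V, none passed edgeR's test and 1 had an unadjusted p under 0.05. This was Lrpprc, which stabilises mitochondrial mRNA, with -0.25 ± 0.09 (edgeR adjusted p = 0.175), and DESeq2 called it lower while the authors' deposited table called none of the 26. None of 8 complex II genes passed with either tool, and 1 had an unadjusted p under 0.05.

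Complex I had 2 of 36 subunit genes lower and none higher with edgeR, against 1.05% and 4.28% of all genes, and 6 had an unadjusted p under 0.05, against 18.1% of all genes. DESeq2 and the authors' deposited table called the same 2 lower and Ndufb5 higher (edgeR log2 fold change 0.49 ± 0.14, adjusted p = 0.0654). Ndufa1, a small subunit needed for complex I assembly, stood at 46.5, 37.9, 42.3, 45.3 and 35.5 CPM in wild type and at 11.2, 11.5, 12.4, 8.93 and 8.88 CPM in the transgenic group. The groups lay far apart, with a fold change of -1.97 ± 0.13 and an edgeR adjusted p of 3.72e-06. Ndufa13 had means of 116 ± 14.0 and 75.8 ± 10.6 CPM (SD, n = 5), a change of -0.61 ± 0.12 (edgeR adjusted p = 0.0113). Ndufa1 was called in all 22 alternatives and Ndufa13 in 18. Of 14 regulators of respiratory genes, which include the coactivators of the PGC-1 family, the factors Nrf1 and Gabpa and the mitochondrial factor Tfam, 1 was lower and none higher. That was Yy1, a zinc finger factor that acts at many promoters of respiratory genes. It stood at 20.6, 21.3, 19.2, 18.3 and 20.6 CPM in wild type and at 17.0, 14.9, 14.4, 16.2 and 15.7 CPM in the transgenic group. Its groups did not overlap, the change was -0.35 ± 0.09 with an edgeR adjusted p of 0.0433, and the call held in 8 of 22 alternatives.

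The start regions of the members held 3 motifs known from respiratory genes in larger shares than all start regions. RefSeq windows were read for 42 of the 53 genes and for 27025 genes in all, on both strands, with windows of the same length and each motif searched on its own without regard to overlaps. The site of NRF1, searched as GCGCA and GCGC with any base between them, was in 9 of 42, 21.4%, against 5.19% of all genes. CCGGAAG was in 14, 33.3%, against 9.93%. AANATGGC, the core of the YY1 site, was in 8, 19.0%, against 6.96%. These shares are a description, and a match does not show binding. The 27025 genes include many outside the 13338 tested in this muscle. They were not matched to the members by level or by the base composition of the windows. Shares among expressed genes alone were not counted. Of the 3 called members, Cox15 and Atp5l had CCGGAAG and neither of the other motifs, and none of the 3 motifs was found in the Cox11 window.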

How the data were processed

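RNA-seq was measured in the biceps femoris of 5 wild-type and 5 Zfp407 transgenic mice. The deposited table holds whole-number counts of reads per gene, not normalized. Beside them stand values of the authors: a mean signal for each gene, a log2 fold change, its standard error on the log2 scale, the Wald statistic, which is a score, and p-values, raw and adjusted, from the authors. The submitters' processing notes name DESeq2 1.10, HTSeq 0.6.1, SAMtools 1.2, Bowtie2 2.2.6, TopHat2 2.1 and the build GRCm38.p4. Strand use, counting options and the gene models are not given in the sources. Reads of overlapping genes and near-identical copies are therefore uncertain: 10 members overlap another tested gene and 5 have a named processed copy. Per library 14.3% to 33.9% of wild-type and 9.62% to 17.3% of transgenic counts fell in Lars2, Gm15564 and Gm15662, rows that resemble ribosomal RNA. The fit was repeated without them. TMM factors ran from 0.814 to 1.01 in wild-type and from 1.02 to 1.16 in transgenic libraries, without overlap. The members made up 0.620% to 0.818% of unscaled counts in wild-type and 0.822% to 1.15% in transgenic libraries. Scaling thus went with genotype, and its part in the fold changes was not tested beyond the alternative scalings.

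In R 4.3.3 with edgeR 4.0.16, low counts were removed by filterByExpr, TMM factors were used, and transgenic was tested against wild type by glmQLFit and glmQLFTest without covariates, with Benjamini-Hochberg adjustment over 13338 genes. The standard error is the absolute fold change over the square root of F; log2 CPM used a prior count of 2. Permutation tests were exact and two-sided over 252 splits and carry no adjustment. Positions and lengths are those of GENCODE M21 (GRCm38), in which all 53 members were found by ID. The members and gene lists were chosen with earlier results of these data known. Named genes were members past the threshold or with an unadjusted p under 0.05, the highest and the 2 smallest p per role, isoform pairs, cytochromes c and c1, mitochondrial partners, called genes of the other lists, Zfp407 and at most 5 further genes. Other values are given as range ends or examples.

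Libraries of 1 group differed by more than counting noise in every pair (chi-square per degree of freedom at least 15.9). The labels describe separate mice, but columns name no mouse, and whether column numbers pair the groups is not known. Same-number correlations of deviations ran from -0.04 to 0.17. Alternatives were other scalings, DESeq2 1.42.0, no filter, other thresholds, marker covariates, a block by column number, left-out libraries and the authors' p-values. The fit was tested on simulated counts of 13338 genes: it found 30% of the changes of 1.5-fold, 74% of those of 2-fold and 98% of those of 4-fold, and made 6 false calls.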

Additional observations from a re-analysis of the deposited data

Results flagged for a closer look

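In 14 of 72 groups of 5 libraries examined, 1 library lay far from the other 4 by Dixon's criterion (0.71 of the group's range). For a group taken alone, chance gives about 1 in 20. The groups hold values of different genes, or their sum, in the same libraries and are not independent. The count of 14 therefore cannot be set against that rate. Transgenic library 3 gave 12 of the 14, each time as the highest of its group. Its summed CPM of the 53 genes was 10991, against 7397 to 8379 in the others. Among complex III and IV genes its values were 119 CPM for Uqcrq, 599 for Uqcrc1, 451 for Cox4i1, 337 for Cox6a2 and 205 for Cox8b. Among ATP synthase genes they were 2368 CPM for Atp5b, 295 for Atp5f1, 117 for Atp5j2, 204 for Atp5g1, 25.9 for Atp5g2 and 19.3 for the related Atp5sl. The GC relation of this library stands in the report. The other 2 were wild-type libraries: Cox15 was 15.8 CPM in library 2 against 18.5 to 19.6 in the others, and Cox6a2 was 232 CPM in library 1 against 176 to 192.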

How the results depend on the processing

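The count of members called higher, 1 in the fit as reported, was 0 with RLE size factors, without the filter on low counts, without the 3 rows that resemble ribosomal RNA, without transgenic libraries 4 and 5, with the hepatocyte or slow fibre covariate, with the replicate block and at an adjusted p of 0.01; it was 10 with total counts only, and 0 to 1 with each library left out. Cox11 lost its call without each of wild-type libraries 1 to 5 and of transgenic libraries 2 to 5. The count called lower, 2, was 1 with total counts only, without transgenic libraries 1 and 2 or 4 and 5, with the hepatocyte covariate and at 0.01, and 2 to 3 with each library left out; transgenic library 3 gave the third, Atp5g2. Total counts only moved the median of the 53 genes from 0.05 to 0.32 and that of all genes from 0.00 to 0.27; leaving out each library gave -0.03 to 0.11 for the former.

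Over the lists of complexes I and II, further factors, mitochondrially encoded genes and regulators, 0 genes were higher and 3 lower, 2 of complex I and the regulator Yy1. The count higher was 9 with total counts only, 1 with DESeq2, 1 in the authors' deposited table and 0 to 1 with each library left out (1 without transgenic library 1). The count lower was 4 with DESeq2 and 3 in the authors' table; it was 1 with total counts only, without transgenic libraries 1 and 2 or 4 and 5 and with the hepatocyte covariate, and 2 to 5 with each library left out (5 without transgenic library 3). Over all genes the 711 calls became 2014 with total counts only, 1230 with DESeq2, 93 with the hepatocyte covariate and 1158 in the authors' table, and 450 to 1116 with each library left out (450 without wild-type library 3, 1116 without transgenic library 3). No result changed its direction while called. The causes were not tested. Whether the column numbers pair the samples is not known, and 3 of 5 wild-type columns correlated best with their own number. With the replicate block 672 genes were called by edgeR. Cox11 then missed the threshold (adjusted p = 0.0821) and Cox15 and Atp5l (0.0479) passed. Depth limits the genes with low counts, among them Cox4i2, Cox11 and Cox16, and mt-Co2 was removed by the filter.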
